A study of Mus musculus with 15 samples.

Results

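DNA methylation and Polycomb silencing are the best-known systems by which a cell keeps genes switched off through cell divisions. The 9 genes described here encode core parts of both: Dnmt1, Dnmt3a, Dnmt3b and Uhrf1 for writing and copying DNA methylation, Tet2 and Tet3 for oxidising it, and Ezh1, Ezh2 and Suz12 for the Polycomb repressive complex PRC2. They were taken by symbol from the deposited gene table, and all 9 were found among its 55536 genes. All 9 also passed the filter on low counts, which kept 13364 genes.

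Total RNA was sequenced from the blood of 15 wild-type male C57Bl/6 mice aged 10 months, with 1 library per animal. The 8 TBT animals were offspring of mothers given tributyltin (TBT), an organotin compound that activates the nuclear receptors RXR and PPAR gamma. It was added to the drinking water, at 3.07 µM for a daily intake of 0.5 mg/kg, and ended at weaning. The 7 vehicle animals were offspring of control mothers, and the labels mark a liver tumor in 1 of them, vehicle 3. The labels say nothing of litters, so animals may share a mother, and the p-values measure the spread between these animals.

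As background, DNMT1 copies CpG methylation onto the new strand after replication, and UHRF1 recognises the half-copied sites and brings DNMT1 to them. DNMT3A and DNMT3B set methylation on unmethylated DNA, and in blood DNMT3A restrains the self-renewal of stem cells. TET2 and TET3 oxidise methylcytosine as the start of demethylation, and TET2 is prominent in the myeloid lineage. PRC2 methylates lysine 27 of histone H3 with EZH2, the main enzyme of dividing cells, or with its relative EZH1, which is also made in resting cells, while SUZ12 is the scaffold that holds the complex together. Blood joins white cells, which are mostly not dividing, with platelets and reticulocytes that carry RNA but no nucleus.

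The promoters of 6 of the genes are shown because the levels below turn on them. These are Ezh2 and Tet2, which varied in opposite ways between animals, and Ezh1 as the relative of Ezh2. The others are Dnmt1 and Uhrf1, the maintenance pair, and Dnmt3b. Each window is 300 bases of the RefSeq GRCm38.p6 promoter table, from 250 bases before a transcription start to 50 after it, written along the gene. Capitals mark matches, on either strand, to forms of the site of E2F, a transcription factor family of the cell cycle. The forms searched were TTGGCGC as the first, TTCCCGC as the second, TTCGCGC as another and TTGCCGC as the last. No printed matches overlap. Dnmt1 has 3 listed starts and Uhrf1 has 2. The Dnmt1 window holding matches and the Uhrf1 window nearest the start of the GENCODE gene are shown.
Ezh2, chr6:47594981-47595280, minus strand: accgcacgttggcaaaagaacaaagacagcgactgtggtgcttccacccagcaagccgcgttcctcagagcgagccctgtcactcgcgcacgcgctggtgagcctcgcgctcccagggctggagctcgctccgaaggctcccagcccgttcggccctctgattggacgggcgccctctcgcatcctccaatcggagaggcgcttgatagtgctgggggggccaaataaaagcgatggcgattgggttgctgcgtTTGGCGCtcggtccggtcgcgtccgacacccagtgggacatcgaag
Ezh1, chr11:101226414-101226713, minus strand: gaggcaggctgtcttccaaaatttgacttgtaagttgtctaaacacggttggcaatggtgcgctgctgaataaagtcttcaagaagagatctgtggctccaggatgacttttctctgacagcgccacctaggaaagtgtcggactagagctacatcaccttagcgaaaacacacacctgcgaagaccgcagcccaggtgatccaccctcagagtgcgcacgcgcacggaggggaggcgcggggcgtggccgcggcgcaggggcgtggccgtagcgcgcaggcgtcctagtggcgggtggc
Tet2, chr3:133544341-133544640, minus strand: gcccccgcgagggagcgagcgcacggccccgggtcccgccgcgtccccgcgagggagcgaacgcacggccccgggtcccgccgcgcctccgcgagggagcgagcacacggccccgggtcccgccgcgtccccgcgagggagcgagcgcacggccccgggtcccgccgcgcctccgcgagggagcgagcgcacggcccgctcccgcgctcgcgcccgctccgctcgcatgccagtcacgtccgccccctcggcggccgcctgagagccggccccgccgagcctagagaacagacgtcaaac
Dnmt1, chr9:20952574-20952873, minus strand: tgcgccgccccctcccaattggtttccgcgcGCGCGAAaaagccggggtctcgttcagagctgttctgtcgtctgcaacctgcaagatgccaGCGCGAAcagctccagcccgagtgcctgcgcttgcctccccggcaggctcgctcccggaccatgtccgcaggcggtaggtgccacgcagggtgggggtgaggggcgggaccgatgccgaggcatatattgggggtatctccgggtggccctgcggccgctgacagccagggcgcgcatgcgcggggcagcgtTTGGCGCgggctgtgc
Uhrf1, chr17:56303087-56303386, plus strand: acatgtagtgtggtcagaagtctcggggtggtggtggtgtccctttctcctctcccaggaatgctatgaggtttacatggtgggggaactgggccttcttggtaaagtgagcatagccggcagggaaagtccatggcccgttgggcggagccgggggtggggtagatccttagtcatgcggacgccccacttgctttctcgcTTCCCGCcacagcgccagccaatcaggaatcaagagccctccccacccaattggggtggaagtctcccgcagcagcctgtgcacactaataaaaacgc
Dnmt3b, chr2:153649199-153649498, plus strand: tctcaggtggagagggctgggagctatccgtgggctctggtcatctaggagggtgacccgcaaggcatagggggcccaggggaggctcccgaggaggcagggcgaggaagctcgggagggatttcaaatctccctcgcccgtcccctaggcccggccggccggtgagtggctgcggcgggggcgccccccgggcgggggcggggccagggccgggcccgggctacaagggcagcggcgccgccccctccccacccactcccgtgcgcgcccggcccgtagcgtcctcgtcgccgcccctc
The Ezh2 window held 1 match just after the start, the Dnmt1 window 3 and the Uhrf1 window 1, and those of Ezh1, Tet2 and Dnmt3b held none. Over all 9 genes, 4 (the fourth was Suz12) had at least 1 listed window with a match, against 10.9% of all 27025 genes with a listed window. The Tet2 window had 57 CpG sites, Dnmt1 33, Ezh2 31, Dnmt3b 30, Ezh1 23 and Uhrf1 12, against a median of 7 over all 32851 windows. These values depend on the start chosen: the Dnmt1 window nearest its GENCODE start had 2 CpG sites and no match, and the other Uhrf1 window had 33 CpG sites and 1 match. Every form searched contains a CpG site. Neither CpG content nor the number of windows per gene was matched between the 9 genes and all genes. A match only says that the letters are there.

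In GRCm38 (GENCODE release M21), Dnmt1 (ENSMUSG00000004099) lies on chromosome 9 at 20907209 to 20959888, Dnmt3a (ENSMUSG00000020661) on chromosome 12 at 3806007 to 3914443, and Dnmt3b (ENSMUSG00000027478) on chromosome 2 at 153649450 to 153687730. Uhrf1 (ENSMUSG00000001228) lies on chromosome 17 at 56303321 to 56323486, Tet2 (ENSMUSG00000040943) on chromosome 3 at 133463679 to 133545139, and Tet3 (ENSMUSG00000034832) on chromosome 6 at 83362373 to 83459084. Ezh1 (ENSMUSG00000006920) lies on chromosome 11 at 101191115 to 101226463, Suz12 (ENSMUSG00000017548) on the same chromosome at 79993106 to 80034123, and Ezh2 (ENSMUSG00000029687) on chromosome 6 at 47530139 to 47595341. Exons of a gene on the opposite strand share 178 bases with Suz12, 174 with Ezh2, 133 with Dnmt3a and 43 with Tet2. Those genes had at most 60 counts in a library at Suz12 and at most 13 at the others. The libraries were stranded, but whether strand was used in counting is not given in the sources used here, so reads of the shared bases may be assigned either way.

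The libraries held 6031530 (vehicle 7) to 11985305 (TBT 3) counts, of which the 9 genes took 0.0484% to 0.0777%. TBT 2 and TBT 8 stood apart from the rest in their TMM scaling factors (0.404 and 0.528). The other libraries had 0.736 (vehicle 6) to 1.58. Haemoglobin transcripts took 50.76% of counts in TBT 2 and 44.49% in TBT 8, against 28.75% (TBT 7) to 44.05% (vehicle 4) elsewhere. On that share TBT 8 lay next to vehicle 4. Vehicle 6 is left out with TBT 2 and TBT 8 in an alternative fit, a choice made from these data. The factor of vehicle 6 was the lowest of vehicle but close to that of vehicle 4 (0.807), and its haemoglobin share was 34.77%. A low factor raises every gene of that library relative to its share of all counts. For that reason levels are given as CPM, the usual scaling of a gene's count by the library's total, on TMM-scaled library sizes, with values on CPM of all counts beside the results that turn on TBT 2 and TBT 8.

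Set per kilobase of merged exon, Ezh2 was the most abundant of the 9 genes in both groups, at 30.7 ± 27.7 CPM per kb over the 8 TBT animals against 27.1 ± 11.2 CPM per kb over the 7 vehicle animals (mean ± SD). It lay above the next gene, Tet3, in all 8 TBT libraries and all 7 vehicle libraries. Tet3, Dnmt1 and Suz12 formed a middle group with overlapping ranges, at means of 9.88 to 11.0 CPM per kb in TBT and 8.58 to 9.72 CPM per kb in vehicle. Ezh1 and Tet2 followed, at 5.55 and 5.13 CPM per kb in TBT and 5.55 and 4.23 CPM per kb in vehicle, and these 2 overlapped each other. Dnmt3a stood at 1.83 CPM per kb in TBT and 1.76 CPM per kb in vehicle, below Tet2 in every library. Uhrf1 (1.04 CPM per kb in TBT and 0.711 CPM per kb in vehicle) and Dnmt3b (0.376 CPM per kb in TBT and 0.540 CPM per kb in vehicle) were lowest, and Uhrf1 exceeded Dnmt3b in 8 of 8 TBT libraries and 4 of 7 vehicle libraries.

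**Figure D1:**
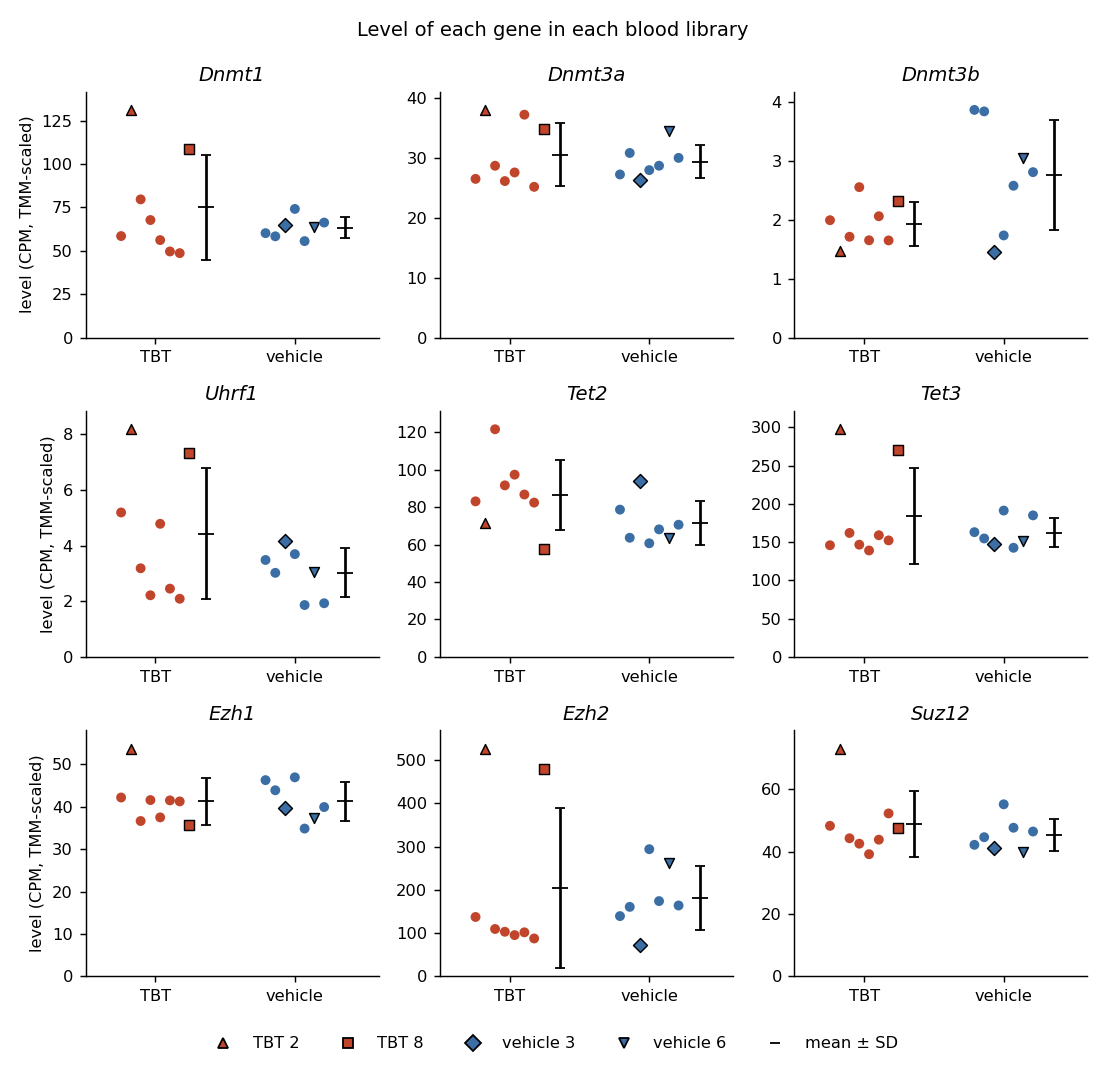
Level of each of the 9 genes (vertical axes, TMM-scaled CPM, from 0) in each of the 8 TBT and 7 vehicle libraries, 1 point per animal, with mean ± SD at the right of each group and marked symbols for TBT 2, TBT 8, vehicle 3 and vehicle 6. On this scale TBT 2 and TBT 8 lie far above the other TBT libraries for Ezh2, Tet3 and Dnmt1, while most TBT points lie above most vehicle points for Tet2 and below them for Dnmt3b.

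The comparison of TBT with vehicle asks whether these genes still differed in adult offspring. None of the 9 passed edgeR's quasi-likelihood test after Benjamini-Hochberg adjustment over all 13364 genes (adjusted p from 0.766 to 0.999), where 0% of all genes passed. DESeq2, run on 41564 genes without the filter on low counts, called 13 genes and limma-voom 22 (0.165%), none of the 9 among them. At an unadjusted p under 0.05 there was 1 of the 9, Dnmt3b, against 846 genes in all (6.33%). Of the 9, 7 had a positive log2 fold change, where 59.4% of all genes did, and their median was 0.18 against 0.05 over all genes. The ranges of TBT and vehicle overlapped for all 9, as they did for all but 0.112% of tested genes.

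On TMM-scaled CPM the maintenance pair spread more widely among TBT animals, and on CPM of all counts the SDs were close: 12.3 in TBT and 12.5 in vehicle for Dnmt1, 1.32 in TBT and 1.33 in vehicle for Uhrf1. Dnmt1 had 48.6 CPM in the lowest TBT library (TBT 7), a median of 63.1 and 131 CPM in the highest (TBT 2), against 55.5 CPM (vehicle 5), 63.9 and 74.1 CPM (vehicle 4) in vehicle. TBT 2 and TBT 8 (108 CPM) lay above every vehicle library, as did TBT 3 (79.6 CPM), and 2 TBT libraries lay below every vehicle library. The log2 fold change of Dnmt1 was 0.24 (SE 0.193, adjusted p = 0.920 in edgeR, exact permutation p = 0.458), and without TBT 2, TBT 8 and vehicle 6 it was -0.08. On CPM of all counts the same TBT 2 was the lowest TBT library for Dnmt1, at 52.8 CPM. Uhrf1, a rare transcript with 11 to 60 counts per library, had 2.09 CPM (TBT 7), a median of 3.98 and 8.18 CPM (TBT 2) in TBT, against 1.86 CPM (vehicle 5), 3.05 and 4.16 CPM (vehicle 3) in vehicle. Its 4 highest values were TBT libraries and the groups overlapped below them. On CPM of all counts the highest TBT library for Uhrf1 was TBT 1, at 6.18 CPM, and TBT 2 had 3.30 CPM. The log2 fold change of Uhrf1 was 0.45 (SE 0.306, adjusted p = 0.883 in edgeR, exact permutation p = 0.225), and it was 0.09 without the 3 libraries.

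Of the enzymes that set new methylation, Dnmt3a had nearly equal means in the groups and Dnmt3b a lower mean in TBT. Dnmt3a had 25.1 CPM (TBT 7), a median of 28.1 and 38.0 CPM (TBT 2) in TBT, against 26.2 CPM (vehicle 3), 28.7 and 34.5 CPM (vehicle 6) in vehicle. Its log2 fold change was 0.05, with a 95% interval from -0.18 to 0.28, the narrowest of the 9 after Ezh1 (edgeR adjusted p = 0.984). On CPM of all counts TBT 2 was the lowest TBT library for Dnmt3a, at 15.3 CPM, and TBT 6 the highest, at 52.2 CPM. Dnmt3b had 1.46 CPM (TBT 2), a median of 1.85 and 2.55 CPM (TBT 4) in TBT, against 1.46 CPM (vehicle 3), 2.80 and 3.86 CPM (vehicle 1) in vehicle. The other 5 vehicle libraries lay above every TBT library, vehicle 4 (1.73 CPM) lay within the TBT range, and vehicle 3 lay at its lower end. The log2 fold change of Dnmt3b was -0.50 (SE 0.229, 95% interval -0.98 to -0.02), with an unadjusted p of 0.0425 and an adjusted p of 0.766 in edgeR, and an exact permutation p of 0.0522. The gene had only 5 to 41 counts per library, and the part of counting error in its spread was not tested. The sign was negative in all 8 other settings (log2 fold change -0.52 to -0.37) and with each of the 15 libraries left out, from -0.64 without vehicle 3, the animal labelled with a tumor, to -0.39 without vehicle 1.

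The TET genes differed in how they spread. Tet2 had 57.7 CPM (TBT 8), a median of 84.9 and 122 CPM (TBT 3) in TBT, against 60.7 CPM (vehicle 4), 68.1 and 94.2 CPM (vehicle 3) in vehicle. Of the TBT libraries 7 lay above the vehicle median, and TBT 8 lay below all vehicle libraries. Vehicle 3 was the highest vehicle library, and 6 of 8 TBT libraries exceeded every other vehicle library. The log2 fold change of Tet2 was 0.28 (SE 0.142, 95% interval -0.02 to 0.58, unadjusted p = 0.0643, adjusted p = 0.810 in edgeR, exact permutation p = 0.0889). It was positive in all 8 other settings (0.26 to 0.41, adjusted p from 0.0945 in limma-voom to 1.00 without scaling factors) and with each library left out (0.19 without TBT 3 to 0.34 without vehicle 3). Without TBT 2, TBT 8 and vehicle 6, the 6 remaining TBT libraries averaged 93.8 ± 14.7 CPM and the 6 vehicle libraries 72.7 ± 12.2 CPM (SD, n = 6 each). All 6 TBT libraries then lay above the vehicle median, with a log2 fold change of 0.36 (unadjusted p = 0.00660, where 17.0% of all genes fell under 0.05, adjusted p = 0.126 in edgeR, where 0.0515% of genes passed). TBT 8 and TBT 2 (71.5 CPM) were the lowest TBT libraries for Tet2, so leaving them out raises the TBT mean by itself. The other 6 already lay above the vehicle median with all libraries in. Tet3 had 139 CPM (TBT 5), a median of 156 and 298 CPM (TBT 2) in TBT, against 143 CPM (vehicle 5), 155 and 191 CPM (vehicle 4) in vehicle. The medians were level and the TBT mean of 184 ± 62.6 CPM (SD, n = 8) held TBT 2 and TBT 8 (271 CPM) far above the rest, against 162 ± 18.9 CPM in vehicle (SD, n = 7). On CPM of all counts the same libraries were the lowest of TBT for Tet3, at 119.9 CPM in TBT 2 and 143 CPM in TBT 8, and TBT 7 was the highest, at 239.9 CPM. The log2 fold change of Tet3 was 0.18 (SE 0.183, adjusted p = 0.960 in edgeR), and -0.13 without the 3 libraries. Tet3 overlaps, without sharing exons, a transcript on its own strand that had 21 to 97 counts per library.

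**Figure D2:**
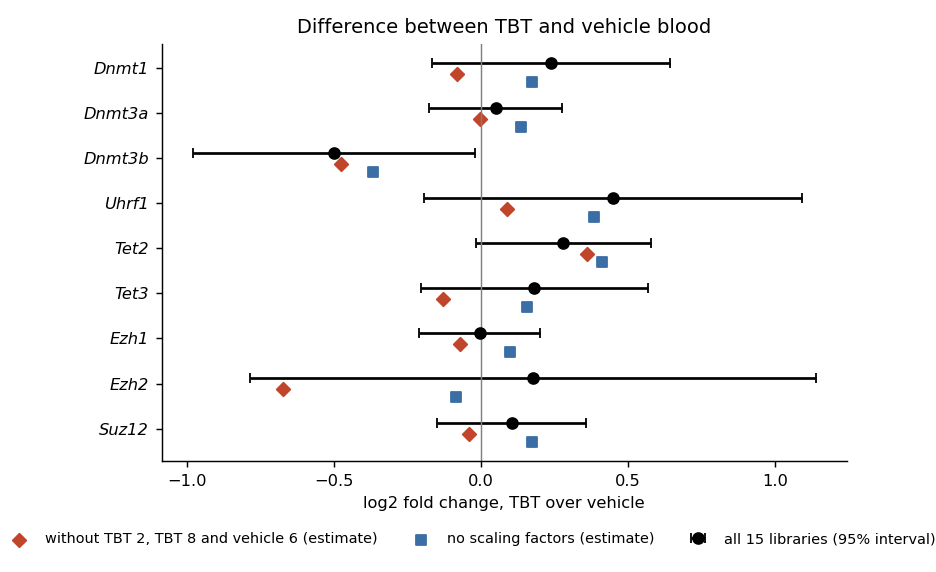
Log2 fold change of TBT over vehicle (horizontal axis) for each gene, with black points and 95% intervals from all 15 libraries, red diamonds without TBT 2, TBT 8 and vehicle 6, and blue squares without scaling factors. Dnmt3b is negative and Tet2 positive in all 3 fits, and Ezh2 turns from 0.18 to -0.67 (without the 3 libraries) or -0.09 (without scaling factors).

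Ezh2 was the most variable of Ezh1, Ezh2 and Suz12 on TMM-scaled CPM. It had 87.5 CPM (TBT 7), a median of 106 and 527 CPM (TBT 2) in TBT, 480 CPM in TBT 8 and 137 CPM or less (TBT 1) in the other 6. In vehicle it had 72.5 CPM (vehicle 3), a median of 164 and 294 CPM (vehicle 4). The TBT libraries lay at both ends: 2 above every vehicle library, and 6 below every vehicle library except vehicle 3, whose nearest neighbour in vehicle had 139 CPM. The TBT mean was 205 ± 185 CPM (SD, n = 8) and the vehicle mean 181 ± 75.0 CPM (SD, n = 7), and the log2 fold change was 0.18 (SE 0.453, adjusted p = 0.988 in edgeR, exact permutation p = 0.819). The 95% interval, -0.79 to 1.14, was the widest of the 9. The mean log2 CPM itself was lower in TBT, by a difference of -0.11, so even the sign depended on the measure. Its biological coefficient of variation was 0.590, above that of 98.0% of tested genes. The sign turned without TBT 2 (-0.18) or without TBT 8 (-0.12). Without both and vehicle 6, Ezh2 averaged 106 ± 17.2 CPM in 6 TBT libraries and 167 ± 72.0 CPM in 6 vehicle libraries (SD, n = 6 each). That is a log2 fold change of -0.67 (unadjusted p = 0.0188, where 17.0% of all genes fell under 0.05, adjusted p = 0.192 in edgeR, exact permutation p = 0.0649). TBT 2 and TBT 8 were the highest TBT libraries for Ezh2, so leaving them out lowers the TBT mean by itself.

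Ezh1 and Suz12 were steadier than Ezh2 on that scale, but not in TBT on CPM of all counts, where Ezh1 averaged 44.5 ± 16.7 CPM, Suz12 51.1 ± 18.1 CPM and Ezh2 160.4 ± 47.8 CPM (SD, n = 8). Ezh1 had 35.7 CPM (TBT 8), a median of 41.4 and 53.7 CPM (TBT 2) in TBT, against 34.9 CPM (vehicle 5), 39.9 and 47.0 CPM (vehicle 4) in vehicle. Both groups averaged 41.3 CPM, with SDs of 5.64 CPM in TBT (n = 8) and 4.56 CPM in vehicle (n = 7), and a log2 fold change of -0.00 with a 95% interval of -0.21 to 0.20 (edgeR adjusted p = 0.999). Suz12 had 39.2 CPM (TBT 5), a median of 45.9 and 73.0 CPM (TBT 2) in TBT, against 39.8 CPM (vehicle 6), 44.6 and 55.2 CPM (vehicle 4) in vehicle. Its log2 fold change was 0.10 (SE 0.121, adjusted p = 0.964 in edgeR), and -0.01 without TBT 2. As a result the ratio of Ezh2 to Ezh1 per length ranged from 2.36 (TBT 7) to 14.98 (TBT 8) in TBT, with a median of 3.08, and from 2.03 (vehicle 3) to 7.83 (vehicle 6) in vehicle, with a median of 4.57. That ratio does not depend on the scaling of the libraries.

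Blood cell makeup may differ between animals and was not measured. Each gene was therefore set beside a score per library for 11 cell types and for the cell cycle, the mean centred log2 CPM of fixed marker genes. In bulk blood, fewer cells of a type and less RNA per cell cannot be told apart. Of 108 relations, 17 had an adjusted p under 0.05 for both Pearson's r and Spearman's rho (permutation tests, Benjamini-Hochberg over the 108). On CPM of all counts, 10 of the 17 kept their sign and 7 kept it at a size of at least 0.5. Those 7 all belonged to Ezh2 or Tet2. On that scale other genes also had a high r with white cell scores. With the monocyte score r was 0.834 for Dnmt3a, 0.811 for Ezh1 and 0.761 for Suz12. A kept sign is therefore a weak check.

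Ezh2 followed the platelet genes over the 15 libraries. Pearson's r was 0.951 and Spearman's rho 0.911 (permutation p = 1e-05 each, the smallest that 100000 resamples can give, adjusted p = 0.00054 and 0.00108 over 108 relations). The platelet score was 1.63 in TBT 2 and 1.48 in TBT 8, between -0.94 and -0.26 in the other 6 TBT animals, and between -0.89 (vehicle 3) and 0.69 (vehicle 6) in vehicle. Without TBT 2 and TBT 8, which are the 2 libraries farthest from the median, r was 0.883. It was 0.972 within TBT (n = 8) and 0.910 within vehicle (n = 7), and 0.763 on CPM of all counts. Ezh2 itself, on that scale, was still highest in TBT 8, at 253 CPM. All 14 platelet marker genes were tested, and their summed level ran from 3808.5 to 10856 CPM of all counts in TBT and from 5098 to 9754 in vehicle. Ezh2 also followed the erythroid score (r = 0.846, rho = 0.832, adjusted p = 0.00081 and 0.00713), but only at r = 0.0565 on CPM of all counts. With monocyte genes its relation was negative (r = -0.675, rho = -0.739, adjusted p = 0.0309 and 0.0184), and r was -0.936 on CPM of all counts. With dendritic cell genes Ezh2 had r = -0.693 and rho = -0.814 (adjusted p = 0.0232 and 0.0072; r = -0.863 on CPM of all counts), and with hepatocyte genes r = 0.651 and rho = 0.768 (adjusted p = 0.0381 and 0.0128; r = 0.582 on CPM of all counts). Whether platelet RNA accounts for the Ezh2 differences was not tested.

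Tet2 took the opposite course. Against the platelet score r was -0.805 and rho -0.857 (permutation p = 0.00026 and 7e-05, adjusted p = 0.00281 and 0.00378 over 108 relations), with r = -0.890 without TBT 2 and TBT 8, -0.807 within TBT, -0.949 within vehicle and -0.774 on CPM of all counts. Against the monocyte score r was 0.848 and rho 0.754 (permutation p = 9e-05 and 0.00194, adjusted p = 0.00139 and 0.0184), with r = 0.736 without TBT 3 and vehicle 3, 0.843 within TBT, 0.8925 within vehicle and 0.960 on CPM of all counts. Tet2 followed the dendritic cell score about as closely (r = 0.782, rho = 0.818, adjusted p = 0.00511 and 0.00713), with r = 0.689 within TBT, 0.845 within vehicle and 0.968 on CPM of all counts. On CPM of all counts Tet2 was also close to other white cell scores. There r was 0.918 for T cell, 0.913 for neutrophil, 0.872 for NK cell, 0.826 for B cell and 0.615 for eosinophil and basophil. The monocyte score itself averaged 0.10 ± 0.45 over the 8 TBT animals against -0.11 ± 0.42 over the 7 vehicle animals (mean ± SD), a difference of 0.21, and all 12 monocyte marker genes were higher in TBT, with 0.22 as their median log2 fold change, where 59.4% of all genes were higher. None of the 12 passed (smallest edgeR adjusted p = 0.788). Other marker lists leaned too: 13 of 14 erythroid genes (median 0.22) and 7 of 9 dendritic cell genes (0.21) were higher, and 13 of 14 B cell genes (-0.24) and 9 of 9 hepatocyte genes (-0.43) were lower, none of them past the adjusted threshold. The erythroid score itself averaged lower in TBT, at -0.03 against 0.04 in vehicle, although TBT 2 had 1.70 and TBT 8 had 1.10. The dendritic cell, B cell and hepatocyte scores differed in the direction of their genes. The summed level of the 12 monocyte genes was 246 to 1536 CPM of all counts in TBT and 421 to 1674 in vehicle. The part of monocyte, dendritic cell or platelet RNA in the Tet2 difference was not tested.

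**Figure D3:**
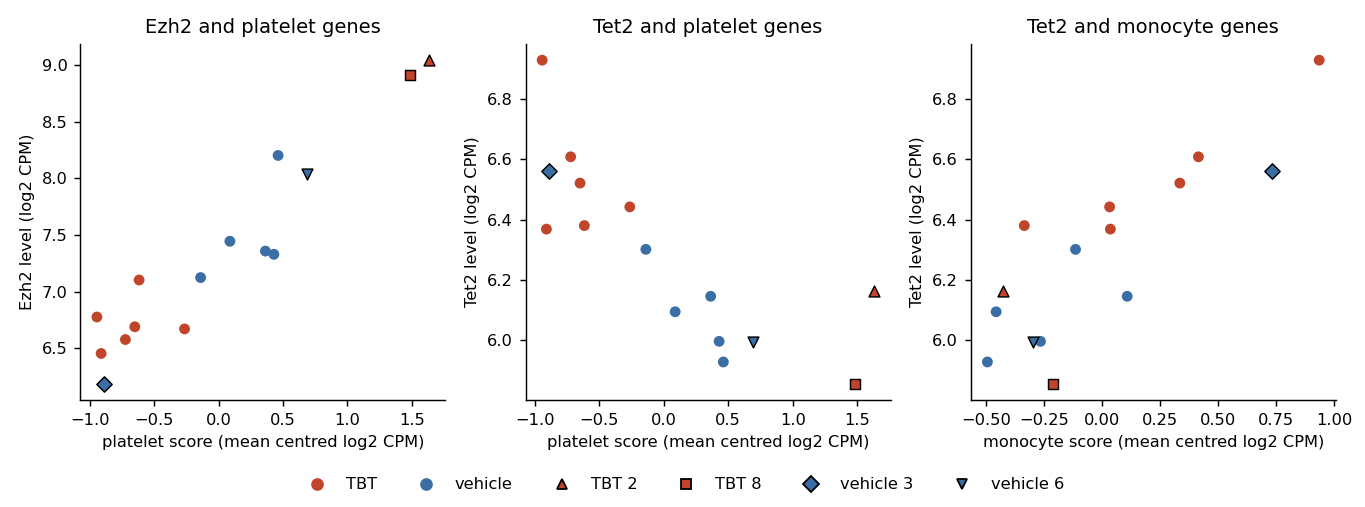
Level of Ezh2 (left) and Tet2 (middle) against the platelet score, and Tet2 against the monocyte score (right), in log2 CPM and mean centred log2 CPM, 1 point per library with TBT in red and vehicle in blue. Ezh2 climbs with the platelet score through both groups (r = 0.951), and Tet2 descends with it (r = -0.805) and climbs with the monocyte score (r = 0.848).

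The remaining 10 of the 17 relations changed sign or had a size under 0.5 on CPM of all counts. Dnmt1 followed the erythroid score (r = 0.931, rho = 0.818, adjusted p = 0.00072 and 0.00713) on TMM-scaled CPM, and r was 0.0340 on CPM of all counts. Its relation with the B cell score was negative on the first scale (r = -0.898) and positive on the second (r = 0.535). Tet3 followed the erythroid score at r = 0.847 on the first scale, against r = -0.340 on the second. Dnmt3a followed the platelet score on the first scale (r = 0.752, rho = 0.729, adjusted permutation p = 0.0106 and 0.0196), against r = -0.438 on the second. With the T cell score Dnmt3a had r = -0.675 and rho = -0.736 (adjusted permutation p = 0.0246 and 0.0184), against r = 0.838 on the second. Ezh2 followed the cell cycle score on the first scale (r = 0.875, rho = 0.786, adjusted p = 0.00108 and 0.0121), against r = -0.439 on the second. Uhrf1 had r = 0.794 with the cell cycle score and Dnmt1 had r = 0.864, and without TBT 2 and TBT 8 these were 0.480 and 0.512. Neither passed for rho (adjusted p = 0.0719 for Uhrf1 and 0.119 for Dnmt1). Dnmt3b, Ezh1 and Suz12 had no relation past the adjusted threshold with any of the 12 scores. The largest r was -0.472 for Dnmt3b, with the dendritic cell score, and 0.610 for Suz12, with the cell cycle score.

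**Figure D4:**
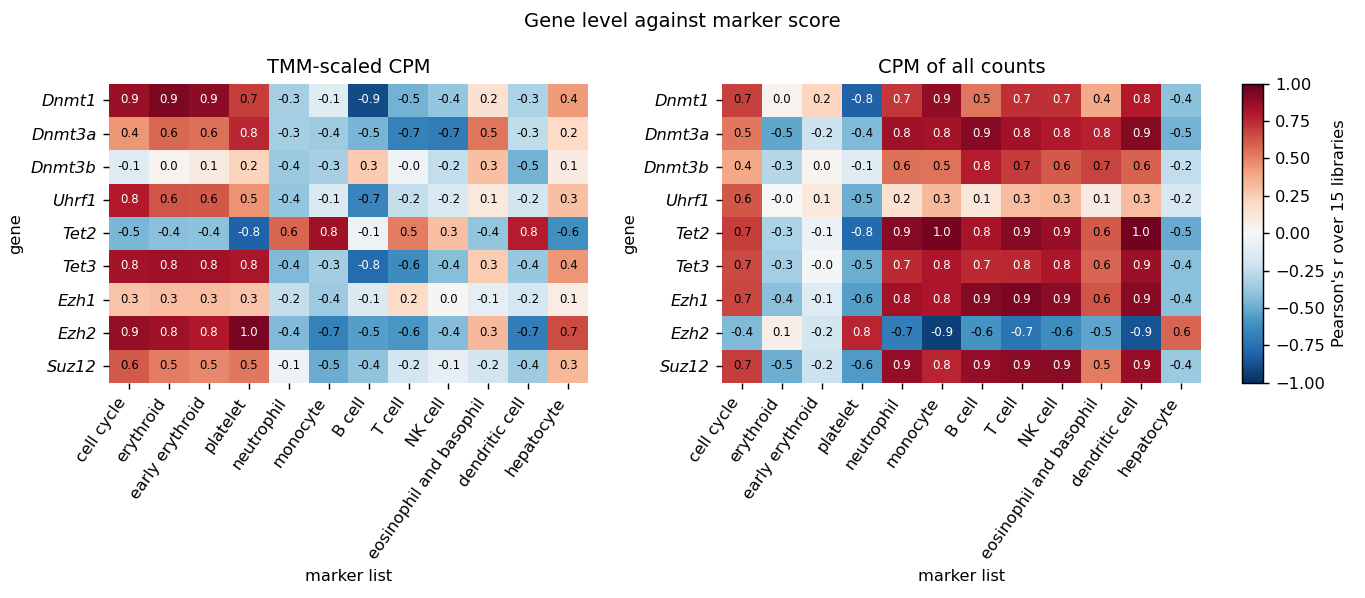
Pearson's r over 15 libraries between the level of each gene (rows) and each marker score (columns), on TMM-scaled CPM (left) and on CPM of all counts (right). Ezh2 is positive with the platelet score and negative with the monocyte score in both panels, Tet2 the reverse, while most entries of Dnmt1, Dnmt3a, Tet3 and Suz12 change sign between the panels.

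Among the 36 pairs of the 9 genes, Ezh2 with Tet2 was the single pair past the adjusted threshold for both measures (r = -0.743, rho = -0.811, adjusted p = 0.0141 and 0.0155, permutation tests). For that pair r was -0.760 within TBT, -0.928 within vehicle, -0.756 without TBT 3 and TBT 8, and -0.889 on CPM of all counts. Dnmt1 and Uhrf1 had r = 0.703 and rho = 0.496 (adjusted p = 0.0230 and 0.251), and r was 0.192 without TBT 2 and TBT 8, so the relation rests on those libraries. Ezh1 and Ezh2 had r = 0.275 (adjusted p = 0.430), and r was -0.736 on CPM of all counts.

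Among 7800 protein-coding genes with a mean of at least 5 CPM, the 3 most like Ezh2 over the 15 libraries were Tlk1, a kinase of chromatin assembly (r = 0.991), Knl1, a kinetochore scaffold (r = 0.988), and Pwwp2a, a reader of the histone variant H2A.Z (r = 0.986). Those most like Tet2 were Pot1b, a telomere protein (r = 0.946), Plac8 (r = 0.942) and Itga4, the integrin alpha 4 chain of leukocyte adhesion (r = 0.937). Those most like Dnmt1 were Cep76, Galnt1 and Rpl41 (r = 0.966 to 0.971), and those most like Tet3 were Golph3l, Psenen and Hipk2 (r = 0.969 to 0.977). Uhrf1 was most like Entr1, Rbl1, a relative of the retinoblastoma protein, and Golph3 (r = 0.832 to 0.864). Dnmt3a was most like Atg7, Tmco3 and Trappc9 (r = 0.855 to 0.867), and Suz12 most like Phlpp2, Trmt11 and Ttll5 (r = 0.840 to 0.903). The best matches were weaker for Ezh1 (Lpcat1, Fam241a and Rnf138, r = 0.759 to 0.829) and Dnmt3b (Cdk7, Adamts10 and Gins4, r = 0.653 to 0.670). These r were picked as the highest of many and carry no test.

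The wider machinery showed no common direction. Of 114 genes in 10 chromatin lists, 106 were tested, 61 higher and 45 lower in TBT. Their median was 0.05 (log2 fold change), equal to that of all genes to 2 decimals. None passed the adjusted threshold in edgeR, and 7 had an unadjusted p under 0.05 (6.60%, against 6.33% of all genes), 4 higher and 3 lower. In the DNA methyltransferase list, 5 of 10 tested genes were higher and 5 lower. Its smallest p belonged to Uhrf2, the relative of Uhrf1, at 34.0 ± 2.34 CPM over the 8 TBT animals against 28.6 ± 3.27 CPM over the 7 vehicle animals (mean ± SD), which gave a log2 fold change of 0.25 (unadjusted p = 0.00920, adjusted p = 0.715 in edgeR). Dnmt3l, the catalytically inactive partner of the de novo enzymes, was too low to test, with at most 5 counts in a library. In the TET and base excision list 4 of 10 were higher. Tet1 stood at 3.68 ± 0.919 CPM over the 8 TBT animals against 3.77 ± 0.812 CPM over the 7 vehicle animals (mean ± SD), and the DNA glycosylase gene Neil1 at 4.05 CPM in TBT and 5.21 CPM in vehicle (log2 fold change -0.34). Among methyl-CpG readers, Zbtb4 stood at 25.5 CPM in TBT and 30.9 CPM in vehicle (log2 fold change -0.27, unadjusted p = 0.0163).

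Of 13 tested PRC2 genes, with Ezh1, Ezh2 and Suz12 among them, 10 were higher in TBT and the median was 0.10 (log2 fold change). Eed, the subunit that reads methylated lysine 27, stood at 24.0 ± 2.31 CPM over the 8 TBT animals against 22.7 ± 1.73 CPM over the 7 vehicle animals (mean ± SD), which gave a log2 fold change of 0.08. The histone chaperone genes Rbbp4 and Rbbp7 had log2 fold changes of 0.25 and 0.10, the accessory subunit genes Lcorl and Phf1 had 0.25 (unadjusted p = 0.0217) and -0.21, and Jarid2 had 0.05. Of 22 tested PRC1 genes, whose complex marks histone H2A, 8 were higher and 14 lower (median -0.06), with Phc3 at 0.22 (unadjusted p = 0.0330) and Cbx7 at -0.29. Of the 8 tested genes of the deubiquitinase that opposes PRC1, 4 were higher, with Asxl2 at 0.20 and Bap1 at -0.19. The H3K27 demethylase genes Kdm6a, Uty and Kdm6b had log2 fold changes of 0.08, 0.23 and 0.07. The Trithorax and COMPASS genes mostly encode H3K4 methyltransferases, their partner subunits and the H3K4 demethylases Kdm5a, Kdm5b and Kdm5c. Of these 16 genes 11 were higher (median 0.06), with Men1 at -0.42 (unadjusted p = 0.0271 in edgeR) and Ash1l at 0.14. The 4 genes listed as H3K36 methyltransferases were all higher (median 0.16), with Nsd3 at 0.18 and Nsd2 at 0.25. In the cofactor list 8 of 13 were higher, with Idh1, which makes the 2-oxoglutarate that TET enzymes use, at 23.1 ± 5.96 CPM over the 8 TBT animals against 18.0 ± 2.81 CPM over the 7 vehicle animals (mean ± SD), which gave a log2 fold change of 0.36 (unadjusted p = 0.0255, adjusted p = 0.731 in edgeR), and Idh2 at -0.23. Of 18 tested cell cycle genes 15 were higher (median 0.18), led by Ccna2 (0.78) and Birc5 (0.65), none past the adjusted threshold. On TMM-scaled CPM the cell cycle score was highest in TBT 2 (0.84) and TBT 8 (0.79), and on CPM of all counts these were the lowest of TBT (-0.40 in TBT 2 and -0.10 in TBT 8).

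**Figure D5:**
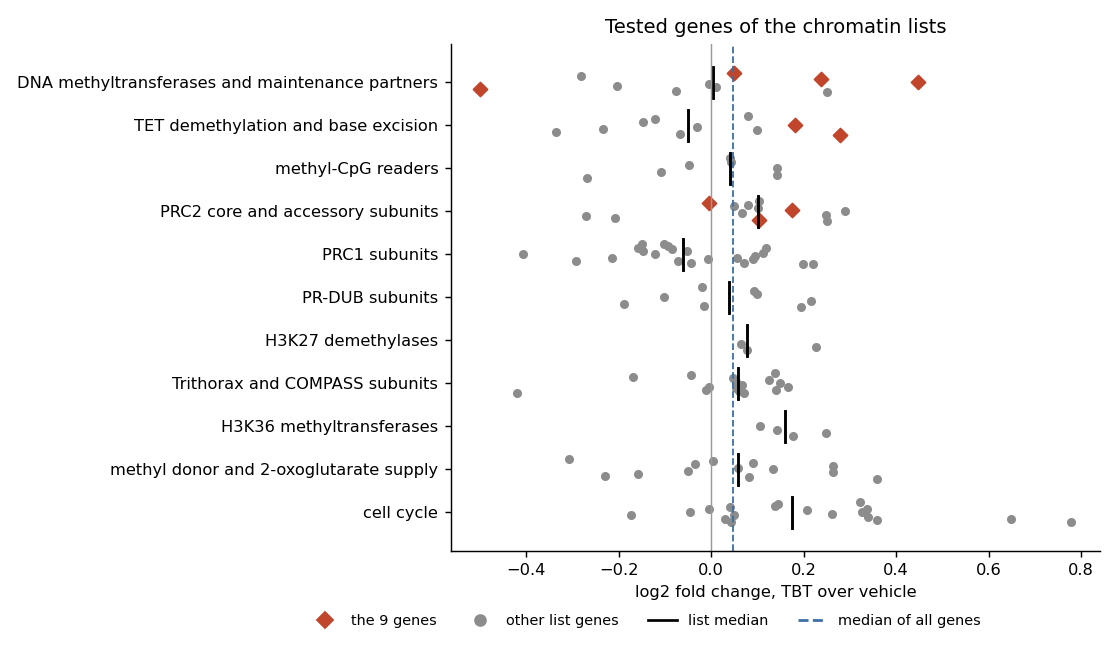
Log2 fold change of TBT over vehicle (horizontal axis) for each tested gene of the chromatin and cell cycle lists (rows), with the 9 genes as red diamonds, other genes as grey points, list medians as black bars and the median of all genes (0.05) as a dashed line. The points spread to both sides of 0 in most lists, and Dnmt3b is the leftmost at -0.50.

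Genes that these systems normally keep silent were low in both groups. Of 14 germline genes known as targets of DNA methylation none had enough counts to be tested. Their summed level was 0.353 to 2.59 CPM of all counts in TBT and 0.713 to 3.86 in vehicle. No gene exceeded 15 counts in a library (Tdrkh), and Rhox5 had 0 counts in every library. In a single library, 0 counts allow an expected count of up to about 3. Of 39 Hox genes, the classical targets of Polycomb, 1 was tested: Hoxb4, a gene of blood stem cells, at 2.26 ± 0.911 CPM over the 8 TBT animals against 2.62 ± 1.42 CPM over the 7 vehicle animals (mean ± SD), which gave a log2 fold change of -0.20 (edgeR adjusted p = 0.979). The summed Hox level was 2.12 to 11.97 CPM of all counts in TBT and 3.99 to 13.1 in vehicle. These ranges overlapped, and differences in single genes were not detectable at this depth.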

How the data were processed

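The authors deposited a table of raw read counts per gene for the 15 libraries. Libraries were stranded total RNA, per the labels' protocols. The submitters' processing notes name Trim Galore, HISAT2 and featureCounts with the build mm10, with versions and settings not given in the sources used here. From those counts, genes were filtered with filterByExpr and tested with edgeR 4.0.16 (R 4.3.3): TMM scaling, a quasi-likelihood test of TBT against vehicle on 13364 genes, and Benjamini-Hochberg adjustment with a threshold of 0.05. DESeq2 1.42.0, limma 3.58.1 and other settings served as alternatives. Single genes also had a two-sided exact permutation test of mean log2 CPM (prior count 2) over 6435 splits, and correlations used 100000 permutations. On simulated data, 12 of 100 genes changed by 0.5 and 60 of 100 changed by 1 (log2) were recovered for TBT against vehicle.

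The libraries held 6031530 to 11985305 counts. No 2 libraries of a group agreed within sampling noise: the lowest chi-square per gene between a pair was 11.3. Group and number of each animal came from the labels. The 9 genes and all lists were chosen with earlier results of these data known. Beyond the 9 genes, the genes named are the 2 with the smallest p of each pathway list and, per gene, the 3 protein-coding genes with the highest r, without predicted models; Tet1, Dnmt3l, Eed, Rbbp4, Rbbp7, Jarid2, Kdm6b, Tdrkh and Rhox5 were added after their values were seen. One gene that this rule names is not reported here.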

Additional observations from a re-analysis of the deposited data

Results flagged for a closer look

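Among the 18 sets of values of a gene in a group, 2 held a library far from the rest by Dixon's test, and chance gives about 1 in 20. Ezh1 had 53.7 CPM in TBT 2, where the next TBT library had 42.2 CPM. Suz12 had 73.0 CPM in TBT 2, where the next had 52.2 CPM. TBT 2 also had the lowest TMM factor (0.404), and on CPM of all counts it was not the highest TBT library for either gene. The part of the scaling in these values was not tested.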

How the results depend on the processing

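Dnmt3b stayed negative, and Tet2 and Uhrf1 positive, in all 8 other settings, with Uhrf1 at 0.0016 in limma-voom. The other genes turned sign as follows (log2 fold changes). Without scaling factors, a setting chosen after seeing the data, Ezh1 was 0.097 and Ezh2 -0.085. In limma-voom, Dnmt1 was -0.019, Dnmt3a -0.034, Tet3 -0.050, Ezh2 -0.60 and Suz12 -0.023. Without TBT 2, TBT 8 and vehicle 6, libraries also picked from these data, Dnmt1 was -0.081, Dnmt3a -0.0048, Tet3 -0.13, Ezh2 -0.67 and Suz12 -0.042. The cause was not tested. The number of genes called, 0 in edgeR, was 2 with no filter on low counts, 13 in DESeq2 (run on 41564 genes without that filter, so tool and filter changed together), 22 in limma-voom and 7 without the 3 libraries.

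The replicate numbers gave no clear sign of pairing: 2 of 7 same-numbered pairs had correlated deviations above 0.1 and 1 of 7 correlated best with its own number. This cannot exclude a pairing, since most TBT animals correlated best with vehicle 3 whatever their number. With the replicate block, 0 genes were called, Dnmt3a was -0.0019, Ezh1 0.0084 and Ezh2 -0.39.

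With each library left out in turn, 0 genes were called in every fit. The ranges were 0.071 to 0.29 for Dnmt1, -0.016 to 0.092 for Dnmt3a, -0.64 to -0.39 for Dnmt3b, 0.28 to 0.54 for Uhrf1, 0.19 to 0.34 for Tet2, 0.044 to 0.22 for Tet3, -0.079 to 0.028 for Ezh1, -0.18 to 0.33 for Ezh2 and -0.0084 to 0.16 for Suz12. The fit without vehicle 3 is among them. Depth limits Dnmt3b and Uhrf1 most, with as few as 5 and 11 counts.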
